A study of Mus musculus with 32 samples.

Results

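Intronic distal summits are the peaks of open chromatin that lie within protein-coding genes but away from any promoter. In each of 32 ATAC-seq summit lists from mouse limb buds, the 25000 summits with the highest deposited score were taken (the whole list where it was shorter), and a summit was kept when it lay inside a GENCODE protein-coding gene, outside every exon, with the nearest protein-coding transcription start 5 to 100 kb away in the mm10 genome. Summits of different libraries were merged into shared sites, which gave 18805 intronic distal sites among 95477 sites in all, or 19.7%. The sites lay in 5789 host genes, of the 15452 protein-coding genes that hold any sequence meeting the rule. A site was counted as listed in a library when that library had a summit within 200 bp of it among its top 25000, and as recurrent when it was listed in at least 16 libraries.

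The libraries addressed how ETV2, an ETS-family transcription factor known as a regulator of endothelial and blood development, acts on chromatin in the limb bud. Population libraries (18) covered hindlimb buds at E9.5 (E9.5 HL, 1 library), posterior hindlimb cells of wild-type embryos at E10.25 (E10.25 WT, 2), posterior hindlimb cells of Etv2 conditional knockout embryos at E10.25 (E10.25 CKO, 5) and at E10.5 (E10.5 CKO, 2), anterior cells (E10.5 Anterior, 1) and EGFP+ posterior cells (E10.5 Posterior, 1) of Shh-EGFP hindlimbs, and EYFP+ cells of Etv2-EYFP transgenic hindlimbs (E10.5 HL EYFP+, 3) and forelimbs (E10.5 FL EYFP+, 3). Overexpression libraries (14) covered anterior and posterior hindlimb tissue of single embryos, 4 controls and 3 that overexpressed Etv2 (Etv2OE). The knockout genotype was HoxB6-Cre Tg/+; Etv2 fl/-, so that deletion followed the cells in which HoxB6-Cre had been active. Etv2OE embryos carried HoxB6-Cre Tg/+ together with iHA-Etv2 Tg/+ and with ROSA26-STOP-rtTA-IRES-EGFP Tg/+, their dams received doxycycline, and the sources differ on the controls, which the methods give as littermates without the iHA-Etv2 or the rtTA transgene and a legend on expression assays as embryos with both transgenes but without HoxB6-Cre. The EYFP+ cells were selected by a transgene driven by the Etv2 promoter and sorted as negative for CD31, TIE2 and CD45, whereas the knockout cells were unsorted. The study's legends give wild-type samples as pools of hindlimb buds from many embryos and knockout samples as pools from fewer, and describe overexpression hindlimbs as analysed separately by embryo. The labels give E10.5 for the overexpression embryos, while the methods describe a later harvest, so their stage is uncertain here.

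Introns hold a large share of the enhancers of vertebrate genes. An enhancer in an intron may act on its host gene or on another gene far away, as with the limb enhancer of Shh that lies in an intron of Lmbr1 and the limb elements of Grem1 that lie in Fmn1. A host gene is therefore an address and not a target, and ATAC-seq shows that a site is accessible without showing which gene it serves.

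The most recurrent sites of Gm20388, Fgfr2, Maml3 and Mecom, which are among the 5 leading host genes, are shown first, because these windows carried a summit in nearly every limb library. Each window has 151 bases centred on the summit, given on the plus strand of mm10 with capitals marking any match to the short motifs listed further below. The windows lie at chr8:120216935-120217085 (intron 1 of Gm20388, listed in 32 libraries), chr7:130834463-130834613 (intron 2 of the GENCODE model of Fgfr2, 30), chr3:51701597-51701747 (intron 2 of Maml3, 32) and chr3:30420568-30420718 (intron 1 of Mecom, 29).
Gm20388 site: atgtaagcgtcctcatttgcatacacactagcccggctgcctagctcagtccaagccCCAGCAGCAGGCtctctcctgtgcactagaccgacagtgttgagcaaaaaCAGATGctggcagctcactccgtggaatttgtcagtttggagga
Fgfr2 site: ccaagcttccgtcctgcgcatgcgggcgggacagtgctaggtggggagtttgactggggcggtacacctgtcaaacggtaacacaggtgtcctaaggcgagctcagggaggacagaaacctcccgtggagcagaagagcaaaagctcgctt
Maml3 site: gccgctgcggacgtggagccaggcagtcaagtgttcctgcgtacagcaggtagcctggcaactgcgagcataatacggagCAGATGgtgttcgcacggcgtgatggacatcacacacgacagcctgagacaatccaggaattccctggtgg
Mecom site: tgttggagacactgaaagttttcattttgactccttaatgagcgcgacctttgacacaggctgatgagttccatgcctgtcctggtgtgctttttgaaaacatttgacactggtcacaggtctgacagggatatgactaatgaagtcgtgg

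The next windows are the sites with the lowest adjusted p in limma, 1 for each comparison and direction, so they were chosen for their difference. They lie at chr11:8585070-8585220 (intron 3 of Tns3), chr5:12442374-12442524 and chr5:12442621-12442771 (both in intron 1 of Sema3d), chr6:142770908-142771058 (intron 5 of Cmas), chr7:25151100-25151250 (Pou2f2), chr14:120313205-120313355 (intron 1 of Mbnl2), chrX:143757750-143757900 (intron 12 of Pak3), chr7:51955498-51955648 (intron 7 of Gas2), chr8:61692982-61693132 (intron 8 of Palld), chr3:98056425-98056575 (intron 2 of Notch2) and chr3:99931365-99931515 (intron 1 of Spag17). Capitals again mark motif matches on either strand.
Tns3 site: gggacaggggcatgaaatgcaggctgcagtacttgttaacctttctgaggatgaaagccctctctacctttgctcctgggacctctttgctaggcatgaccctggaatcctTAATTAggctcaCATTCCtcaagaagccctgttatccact
Sema3d site: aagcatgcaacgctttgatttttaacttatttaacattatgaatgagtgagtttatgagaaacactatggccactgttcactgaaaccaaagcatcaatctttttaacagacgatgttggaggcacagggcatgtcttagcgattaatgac
Second Sema3d site: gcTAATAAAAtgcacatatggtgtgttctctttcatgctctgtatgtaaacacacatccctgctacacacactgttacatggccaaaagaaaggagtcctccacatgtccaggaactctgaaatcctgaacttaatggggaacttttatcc
Cmas site: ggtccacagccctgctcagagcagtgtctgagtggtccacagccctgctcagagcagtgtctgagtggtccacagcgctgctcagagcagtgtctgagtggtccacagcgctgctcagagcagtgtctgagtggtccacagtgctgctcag
Pou2f2 site: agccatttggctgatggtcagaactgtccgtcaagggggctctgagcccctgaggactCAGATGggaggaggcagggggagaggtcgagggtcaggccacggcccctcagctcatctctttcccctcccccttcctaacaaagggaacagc
Mbnl2 site: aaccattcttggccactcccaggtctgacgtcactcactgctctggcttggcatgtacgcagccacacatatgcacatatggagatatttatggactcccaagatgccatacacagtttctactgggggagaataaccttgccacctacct
Pak3 site: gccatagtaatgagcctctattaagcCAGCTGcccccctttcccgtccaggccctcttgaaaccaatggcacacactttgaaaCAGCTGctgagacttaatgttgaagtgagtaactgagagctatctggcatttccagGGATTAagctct
Gas2 site: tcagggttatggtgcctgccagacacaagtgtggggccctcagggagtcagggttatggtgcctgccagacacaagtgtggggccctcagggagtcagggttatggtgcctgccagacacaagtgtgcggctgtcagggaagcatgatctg
Palld site: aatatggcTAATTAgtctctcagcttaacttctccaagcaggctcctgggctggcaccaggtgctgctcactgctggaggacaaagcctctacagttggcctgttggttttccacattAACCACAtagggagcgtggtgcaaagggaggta
Notch2 site: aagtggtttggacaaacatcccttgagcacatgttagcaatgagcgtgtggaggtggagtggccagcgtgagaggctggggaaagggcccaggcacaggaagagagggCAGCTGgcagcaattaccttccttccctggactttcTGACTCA
Spag17 site: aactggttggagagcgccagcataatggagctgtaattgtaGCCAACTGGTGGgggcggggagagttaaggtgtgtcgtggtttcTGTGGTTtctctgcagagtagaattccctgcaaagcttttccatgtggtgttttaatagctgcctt
The Cmas window is a tandem repeat in which 98.3% of bases recur at a period of 33 bases, and in the Gas2 window 90.4% recur at a period of 47 bases. None of the other windows in this set passed 40% at any period from 8 to 60 bases. Both Sema3d windows lie close together and share a summit in several libraries, so they are not independent sites.

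3 libraries stood apart from the rest. The list of E10.5 Anterior held 13766 summits, that of E10.25 CKO replicate 2 held 15629 and that of E10.25 CKO replicate 4 held 19737, while the other 29 lists held 28368 to 54679. Intronic distal sites that are tandem repeats (at least 90% of bases recurring) made up 19.6% of those listed in E10.25 CKO replicate 2, 13.2% in E10.5 Anterior and 0.309% in E10.25 CKO replicate 4. They made up 6.41%, 1.71% and 6.97% in the full E10.25 CKO lists (replicates 1, 3 and 5) and 1.71% and 3.49% in E10.25 WT, against a median of 1.73% over the 18 population libraries and 0.407 to 0.771% over the 14 overexpression libraries. The read depth behind the lists is not known from the files. For E10.25 CKO the share difference, the count of called sites and the count of host genes are given with and without both short lists. Other tests with E10.25 CKO include them unless stated.

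Promoter summits within 1 kb of a start were used to check the tissue in the whole lists. The limb mesenchyme gene Twist1 was listed in 32 of 32 libraries, Prrx1 in 30 and Msx1 in 29, and the hindlimb genes Isl1, Tbx4 and Pitx1 were listed in 32, 27 and 25. In the forelimb group Tbx4 and Pitx1 were each listed in 1 of 3 libraries, and in the E10.5 HL EYFP+ group in 3 of 3. The forelimb gene Tbx5 did not separate them, with 1 of 3 libraries in each and 0 in all other groups. Of the posterior genes Hand2 was listed in 28 of 32 libraries, 3 of 4 Control anterior ones among them, and Hoxd13 in 20, with 1 of 4 in Control anterior and 3 of 4 in Control posterior. The Shh promoter was listed in E10.5 Posterior, in 1 of 4 Control posterior libraries and in 2 of 5 E10.25 CKO libraries, but in 0 of 2 E10.25 WT and 0 of 3 E10.5 HL EYFP+ libraries, so it did not follow the labels. The E10.5 Anterior list lacked Prrx1, Msx1, Prrx2 and Pitx1. Of the endothelial markers Cdh5, Pecam1 and Tie1 were listed in 0 of 32 libraries, Emcn in 1, Tek in 4 and Kdr in 32. Of the blood markers Ptprc was listed in 0 of 32, Gata1 in 1 and Tal1 in 14, and both the Emcn and the Gata1 promoter were listed in an E10.25 WT library. Ectodermal Epcam was listed in 17, Grhl2 in 11, Trp63 in 4 and Krt14 in 0, and of the muscle progenitor genes Pax3 was listed in 13, Lbx1 in 9, Myf5 in 8 and Pax7 in 3. Of the neural crest genes Sox10 was listed in 3 and Foxd3 in 4.

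The share of summits that were intronic distal ranged from 9.90% to 15.8% over the 32 libraries, with a median of 14.2%. It was 12.98% in E9.5 HL (n = 1), 12.8% ± 0.170 in E10.25 WT (SD, n = 2), 11.5% ± 1.34 in E10.25 CKO (SD, n = 5) and 13.7% ± 0.0877 in E10.5 CKO (SD, n = 2). The single E10.5 Anterior and E10.5 Posterior libraries had 10.7% and 13.4%. Forelimb and hindlimb EYFP+ cells had 14.5% ± 1.13 and 14.1% ± 0.901 (SD, n = 3 each). The highest mean shares were in the overexpression experiment, with 14.7% ± 0.222 in Control anterior and 15.3% ± 0.167 in Control posterior (SD, n = 4 each), and 14.6% ± 0.199 in Etv2OE anterior and 15.2% ± 0.414 in Etv2OE posterior (SD, n = 3 each). The lowest shares belonged to the shortest lists.

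**Figure D1:**
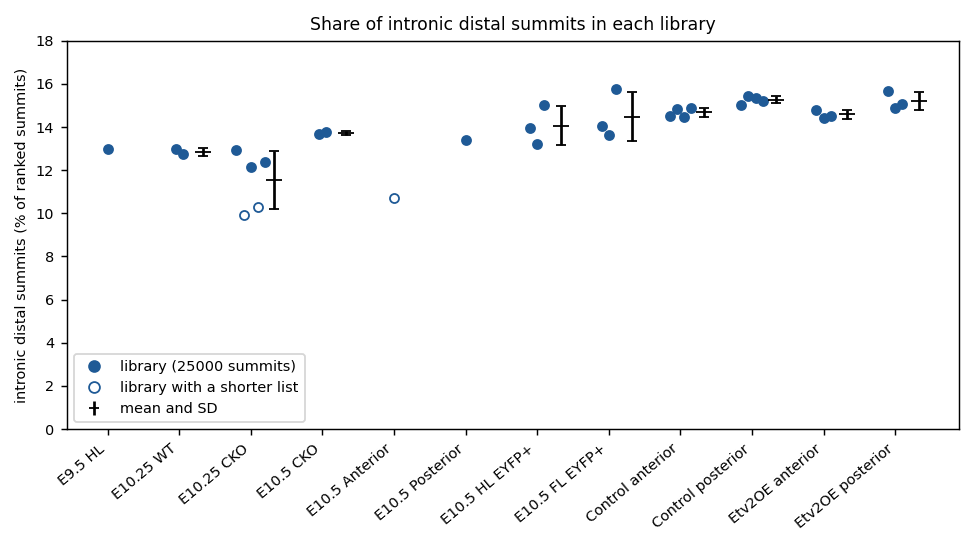
Share of ranked summits that were intronic distal (y axis, %) in each library of the 12 groups (x axis), with the group mean and SD beside the points where a group has replicates. The 3 open circles, libraries with fewer than 25000 summits, lie between 9.90% and 10.7%, below all other libraries.

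Only Control posterior and Control anterior did not overlap in this share. The posterior libraries had 15.04 to 15.4% and the anterior libraries 14.5 to 14.9%, a difference of 0.582 percentage points (exact permutation test, two-sided, p = 0.0286, adjusted p = 0.171 over the 6 comparisons), and the posterior lists were also longer. Paired by embryo, the exact permutation p was 0.125, the smallest that 4 pairs allow. E10.25 WT exceeded E10.25 CKO by 1.32 points (exact permutation p = 0.143, adjusted p = 0.429), and by 0.364 points without both short lists. The differences were 0.341 points for hindlimb EYFP+ over E10.5 CKO cells (exact permutation p = 0.7), 0.412 for forelimb against hindlimb EYFP+ cells (exact p = 0.6), -0.0867 for Etv2OE anterior against Control anterior (exact p = 0.629) and -0.0647 for Etv2OE posterior against Control posterior (exact p = 0.8), each with an adjusted p of 0.8. The sign of 3 of these 4 differences turned when 1 library was left out, with ranges of -0.134 to 0.762, -0.231 to 0.887 and -0.298 to 0.098 points for all but the anterior Etv2OE difference (-0.198 to -0.006). With the top 10000 the E10.25 difference was -1.01 points and those of Etv2OE anterior and posterior were 0.425 and 0.257. None of the 6 differences passed the adjusted threshold of 0.05, and with 10 arrangements of 3 against 2 libraries the first comparison could not go below 0.1.

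Intronic distal summits were mostly of low rank. Among the 5000 best summits of a library a median of 5.71% were intronic distal and 72.8% lay at promoters, and the intronic distal share rose in every following bin to 11.1%, 15.2%, 18.9% and 21.6% at ranks 20001 to 25000, where promoters made up 21.7%. They were also less shared between libraries than promoters. Of the intronic distal sites 31.5% were listed in 1 library, 2247 (11.9%) were recurrent, 922 were listed in at least 24 libraries and 79 in all 32, whereas 48.0% of promoter sites were recurrent. Intergenic distal sites, at the same distances but outside genes, were recurrent in 14.7% of cases. Sequence meeting the rule made up 609444505 bases, 23.02% of the genome, so recurrent sites lay at 3.69 per Mb in introns, 4.40 per Mb in the intergenic class and 223 per Mb at promoters. These densities are descriptions, since the number of sites follows from the cutoff of 25000.

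**Figure D2:**
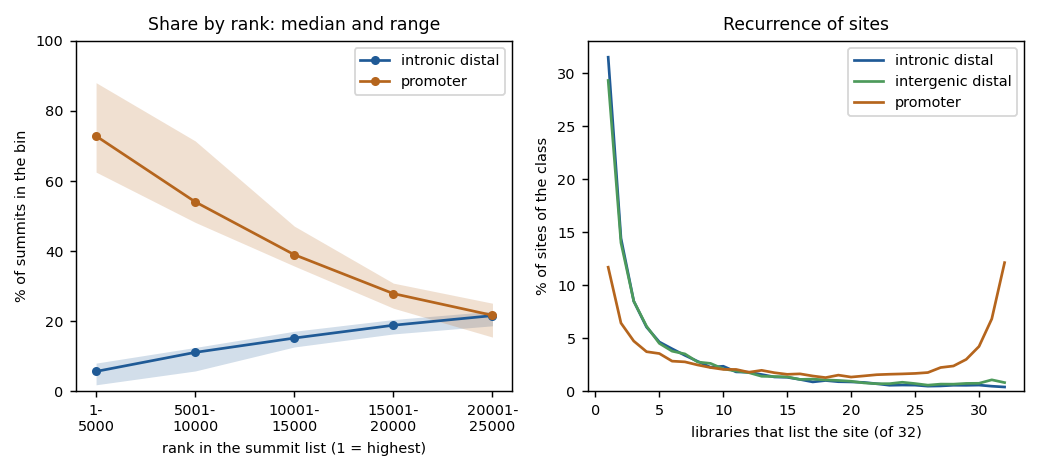
Left, share of summits (y axis, %) that were intronic distal or at promoters in bins of 5000 ranks (x axis), as the median over libraries with the full range shaded; right, share of the sites of each class (y axis, %) by the number of libraries that list them (x axis, of 32). The intronic distal median rises from 5.71% to 21.6% while promoters fall from 72.8% to 21.7%, and only promoters have a second mode at 32 libraries.

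The host genes with the most recurrent intronic distal sites were Gm20388 (18 sites), Dnm3 (10), Fgfr2 (9), Maml3 and Mecom (8 each), then Fmn1, Slc14a2, Tmem132c and Gse1 (7 each). Ppm1h, E130114P18Rik, Pknox2, Vgll4, Usp29, Pde4d, Auts2 and Esrrg had 6 each, and Ppfibp2, Tcf7l1 and Syn3 had 5 each. Together these 20 genes held 137 of the 2247 recurrent sites (6.10%) in 1.72% of the sequence that meets the rule. Per 100 kb of that sequence Gm20388 had 0.624 recurrent sites, Pde4d 0.542 and Fgfr2 0.416, against 0.369 over the genome. The rest of the 20 had 1.21 (Auts2) to 6.13 (Vgll4). Recurrence was otherwise thinly spread. Of the 1575 host genes with a recurrent site 1127 had exactly 1, 27 had at least 5 and 2 had at least 10.

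Not all of these names stand for a single gene. Gm20388 (chr8:119910841-124345722) is a 4434882-bp read-through model that spans 71 other protein-coding genes and has no RefSeq entry, and it includes Gse1, so their sites are partly the same. The GENCODE model of Fgfr2, the fibroblast growth factor receptor needed for limb outgrowth, covers 2960900 bp and 29 other protein-coding genes, while RefSeq gives it 104358 bp, and 0 of its 9 recurrent sites lie in the RefSeq body. E130114P18Rik is a 16717-bp noncoding RNA in RefSeq, which holds 1 of its 6 sites. The other 17 genes kept 5 or more recurrent sites in their RefSeq bodies, with Mecom at 7 of 8 and Pde4d at 5 of 6 as the only losses. Over all genes, 2163 of the 2247 recurrent sites (96.3%) lay in a RefSeq protein-coding gene, and ranking by RefSeq bodies kept 17 of the 20 names.

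**Figure D3:**
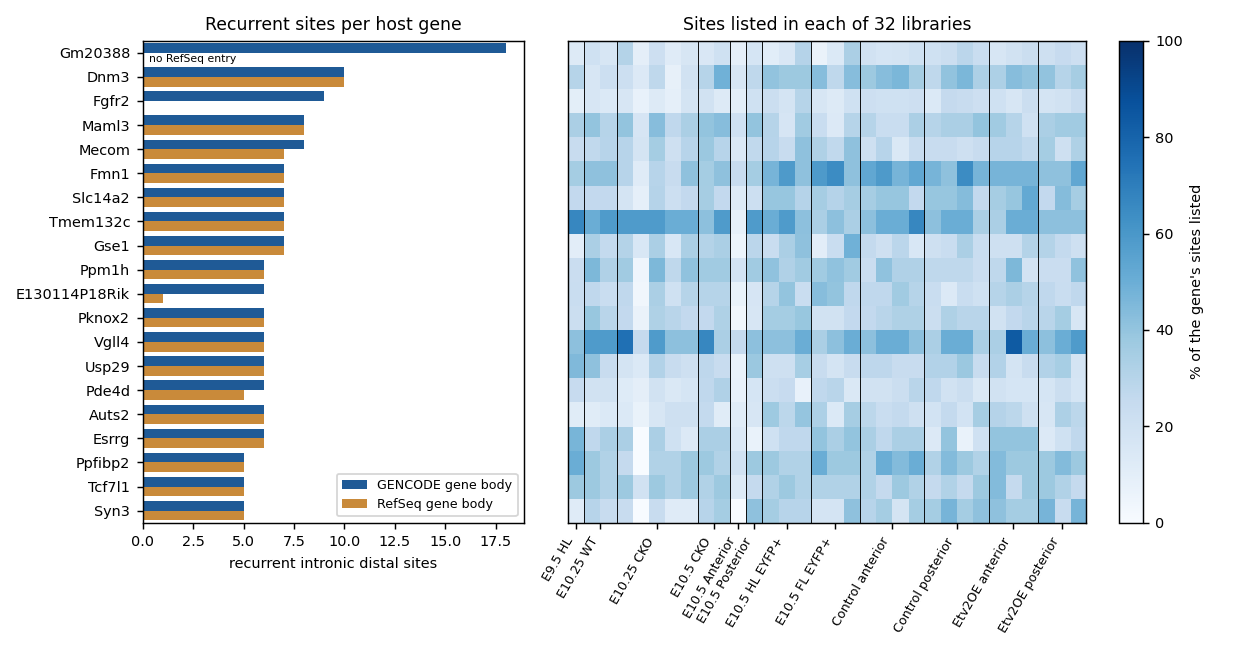
Left, recurrent intronic distal sites (x axis, count) of the 20 host genes with most of them (y axis), by GENCODE and by RefSeq gene body; right, share of each gene's sites listed in each of 32 libraries (colour, %), with groups divided by black lines. Gm20388, Fgfr2 and E130114P18Rik lose most or all of their sites under RefSeq bodies, and the pale columns at E10.25 CKO and E10.5 Anterior are the short lists.

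Dnm3, a dynamin that severs membranes and whose opposite strand carries the developmental noncoding RNA Dnm3os, had 37 sites in 345438 bases meeting the rule, or 2.89 recurrent sites per 100 kb against 0.369 over the genome. The number of its sites listed was 11 in E9.5 HL, 6 and 8 in E10.25 WT, 3 to 10 with a median of 7 in E10.25 CKO, 11 and 18 in E10.5 CKO, 14 to 15 in E10.5 HL EYFP+ and 10 to 16 in E10.5 FL EYFP+. It was 10 to 17 in the 8 control libraries and 11 to 16 in the 6 Etv2OE libraries, so that the overexpression groups overlapped. Maml3, a coactivator of Notch signalling, had 3.02 recurrent sites per 100 kb and between 4 and 13 of its 30 sites listed in every library. Mecom, a zinc finger transcription factor, had 34 sites, of which 5 to 14 were listed in each library.

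Fmn1, an actin-nucleating formin whose gene carries limb elements of its neighbour Grem1, had 7 recurrent sites among 17. Of the 17, E9.5 HL and E10.5 Posterior listed 6 each, both E10.25 WT libraries 7 and the E10.5 CKO libraries 6 and 7. The short lists of E10.5 Anterior and of E10.25 CKO replicates 2 and 4 listed 4, 2 and 4, the other E10.25 CKO libraries 5, 5 and 7, and the E10.5 EYFP+ cells listed 7 to 10 in the hindlimb and 7 to 11 in the forelimb. Control libraries listed 7 to 11 and Etv2OE libraries 7 to 9. Of the genes known to host an element of another gene, Slc25a13 had 1 recurrent site, and Lmbr1, Dync1i1, Elp4 and Fto had 0, with 5 sites in Lmbr1 all listed in fewer than 16 libraries.

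Per length of sequence the order changed among genes with at least 5 recurrent sites. Ddc, the enzyme that makes dopamine and serotonin, had 7.32 recurrent sites per 100 kb, followed by the TEAD cofactor Vgll4 (6.13), the heparan sulphate polymerase Ext1 (5.26), Tmem132c (5.08), the liprin Ppfibp2 (4.03) and the Wnt pathway transcription factor Tcf7l1 (3.44). Gse1, Usp29 and E130114P18Rik each had 3.29, and the phosphodiesterase Pde3a had 3.13. Vgll4 had 12 sites, of which 4 to 10 were listed in the overexpression libraries, 7 in both E10.25 WT libraries and 3 in E10.5 Anterior. Across the 5789 host genes the number of recurrent sites and the length of sequence meeting the rule had a Spearman rho of 0.27, given as a description across genes. Of the 24 genes with over 500 kb of such sequence 6 had no recurrent site.

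The gene lists were compared by their recurrent sites per 100 kb, next to 0.372 over all protein-coding genes. Limb bud transcription factors had 0.929, with 20 sites in 11 of the 35 genes that hold any such sequence, led by the Hedgehog effector Gli2, the chondrogenic factor Sox5 and Tbx15 with 3 each and Gli3 with 2. Other long transcription factor genes had 1.01, with 73 sites in 31 of 40 genes, led by Mecom (8), Auts2 (6), Tcf7l1 (5) and Zfp423 (5). Signalling receptors and regulators had 0.755, with 47 sites in 24 of 52 genes, among them the BMP receptor Bmpr1b (4) and Fgf10, Ror2 and Smad6 (3 each). Their largest entry was Fgfr2, whose 9 sites belong to the long GENCODE model.

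Lists for other cell types and tissues were lower or rested on few sites. Endothelial and blood genes had 0.653 (14 sites, with Ets1, Mef2c and Ptprb at 2 each), cartilage and matrix genes had 0.456 (8 sites, Col2a1 and Fbn1 at 2 each) and very long neuronal genes had 0.361 (31 sites, led by Macrod2 and Ptprd at 4 each). Ectodermal genes had 0.209 from 1 site in Tfap2a, neural crest genes 1.15 from 1 site in Ednrb, and muscle progenitor genes had no recurrent site although 32 sites lay in genes such as Pax3 (12), Met (6) and Pax7 (5).

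Recurrent and rarely listed intronic distal sites differed in sequence. Where they were listed, recurrent sites had a median rank of 12802, sites listed in at least 24 libraries had 9673 and sites listed in 1 library had 20988. Windows covered mostly by repeat-masked bases made up 1.96% of recurrent sites and 13.2% of those in 1 library, and tandem repeats made up 0.623% and 3.88% of recurrent and of all intronic distal sites. Median GC content was 51.0% in recurrent sites and 49.7% in sites of 1 library. Position within the gene varied less. The first intron held 30.3% of the recurrent sites with an intron assigned and 29.2% of all of them, and the median distance to the nearest start was 30011 bp and 30447 bp.

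Short motifs were counted on both strands of the 151-base windows, as descriptions of sequence. The E-box CAGATG was present in 15.5% of intronic distal sites listed in 1 library, 18.4% of those in 2 to 15, 20.6% of those in 16 to 23 and 22.3% of those in 24 to 32, against 17.6% of recurrent intergenic distal sites and 13.9% of all sites. The TEAD motif GGAATG rose along the same steps from 9.61% to 12.9% (9.10% of recurrent intergenic distal and of all sites), and the palindromic E-box CAGCTG was in 12.4% and 16.4% at both ends (12.02% of all sites). The GATA motif AGATAA went the other way, from 8.22% of sites in 1 library to 3.04% of those in 24 to 32 (5.28% of all sites). The ETS motif, AGGAAGT or AGGAAAT, was in 9.15% of sites in 1 library and 9.98% of those in 24 to 32, with 9.77% over all intronic distal sites and 8.86% over all sites. The CTCF core CCANNAGNNGGC was in 6.76% of recurrent intronic distal sites and 9.81% of recurrent intergenic ones (4.65% of all sites). The remaining capitals in the printed windows mark the homeodomain motif TAATTA (5.79% of all sites), the bicoid type motif TAATCC (4.26%), the HOX13 motif NAATAAAA (4.39%), AP-1 TGANTCA (3.64%) and RUNX TGTGGTT (2.66%). Matches of different motifs may overlap.

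For comparisons between groups each site received a rank score in each library, 1 for the best summit, falling evenly to near 0 at rank 25000 and 0 when the site was not listed. A score difference is therefore a difference in rank, not in read density. Scores of all sites listed in at least 2 libraries of an experiment were tested with limma, with Benjamini-Hochberg adjustment over all sites and a threshold of 0.05, and the mean score of a gene's sites was tested likewise over host genes with at least 3 tested sites. None of the 20 host genes with most recurrent sites was called as a gene in any of the 6 comparisons. Adjusted p-values are approximate for scores of this kind. A site listed in 1 group alone passed the filter of 2 libraries through that group and had to differ. No p is therefore given for a site listed in fewer than 2 libraries of the experiment outside the group in which it was higher, or for a host gene with fewer than 3 sites listed in at least 2 libraries outside both groups. Counts of calls, also those of the gene lists, are followed by the counts among sites listed in at least 2 libraries outside both groups, called here the stricter filter.

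**Figure D4:**
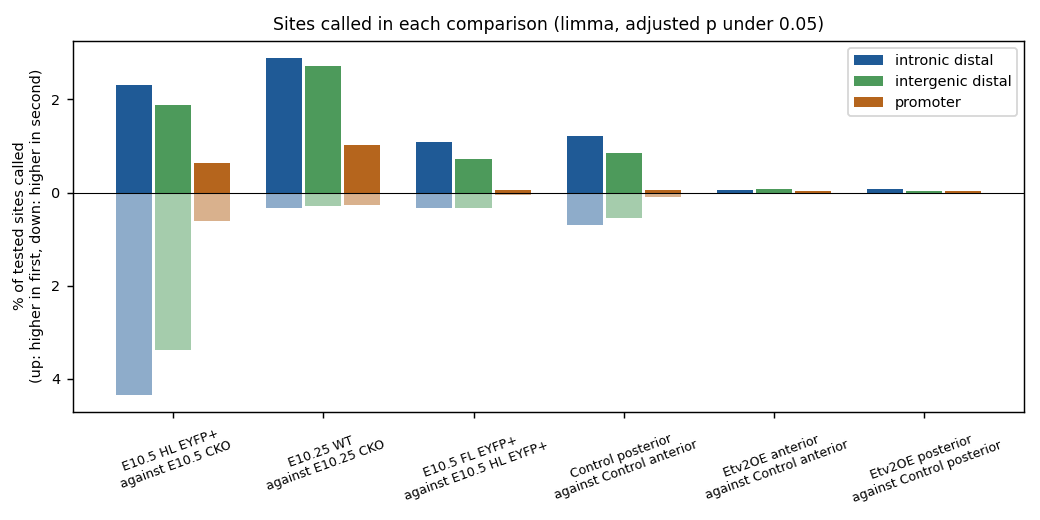
Share of tested sites (y axis, %) called by limma at an adjusted p under 0.05 in each comparison (x axis), for intronic distal, intergenic distal and promoter sites, with sites higher in the first-named group above 0 and those higher in the second below. Intronic distal sites reach 2.31% up and 4.34% down in the first comparison, and under 0.1% in both Etv2OE comparisons.

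Hindlimb EYFP+ cells and knockout hindlimb cells differed at more intronic distal sites than any other pair compared when the top 25000 summits were used, but not with whole lists. Of 9578 tested sites 637 were called, 221 higher in E10.5 HL EYFP+ and 416 higher in E10.5 CKO, or 6.65%, while over all 59380 sites of every class 4.96% were called, 1.69% higher in E10.5 HL EYFP+ and 3.26% higher in E10.5 CKO. Sorting, hindlimb region and genotype differ together between these groups and cannot be told apart. With whole lists in place of the top 25000 the count was 585, split 310 and 275, and 2 of the other pairs had more. Of the 637 sites 154 were listed in fewer than 2 libraries outside the higher group, and among 7900 sites listed in at least 2 libraries outside both groups 430 were called (5.44%), 189 and 241, against 3.69% of all sites under this filter. The top 10000 gave 219 sites and a fit of both groups alone 273.

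Tns3, a tensin of focal adhesions, led the sites higher in E10.5 HL EYFP+. Its site was ranked 2158, 6221 and 2841 in the 3 E10.5 HL EYFP+ libraries and was not listed in either E10.5 CKO library, a score difference of 0.85 ± 0.044 (SE, limma adjusted p = 6.7e-07). It was listed in 1 of 5 E10.25 CKO libraries, at rank 23730, in no E10.25 WT or E9.5 HL library, and in all 3 forelimb EYFP+ and all 14 overexpression libraries. The site in the zinc transporter gene Slc39a10 was ranked 987, 1085 and 1813 in E10.5 HL EYFP+ and 20539 in 1 of 2 E10.5 CKO libraries (difference 0.86 ± 0.053, adjusted p = 2.1e-06). That in Cadps2, which acts in vesicle exocytosis, was ranked 5521, 5665 and 6146 against none (0.77 ± 0.049, adjusted p = 3.2e-06). As these sites were chosen by lowest adjusted p, the lack of overlap between the groups at them is no separate result.

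Sema3d, a secreted axon guidance cue, led the other direction. Its site was ranked 5193 and 7464 in E10.5 CKO and was not listed in any E10.5 HL EYFP+ library (score difference -0.75), nor in any E10.25 CKO library. The second Sema3d window had the same ranks in these 5 libraries and was listed in 3 other population libraries (limma adjusted p = 3.8e-07). The site in Epsti1 was ranked 11164 and 10918 in E10.5 CKO and absent from E10.5 HL EYFP+ (-0.56). The first Sema3d site and the Epsti1 site were rare elsewhere, listed in 6 and 4 libraries in all.

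Among the lists, signalling genes had 9 sites higher in E10.5 HL EYFP+ and 8 lower of 154 tested (11%, against 6.65% of all tested intronic distal sites), 4 of them in the long Fgfr2 model. Under the stricter filter they had 8 higher and 4 lower of 121 (9.92%, against 5.44%). Both counts of higher sites include Notch2 sites at 98063417 and 98063617 on chromosome 3. These lie close together with the same mean scores (0.596 in E10.5 HL EYFP+ and 0 in E10.5 CKO), so they are not independent sites. A site in Hhip, which binds and restrains Hedgehog ligands, had a mean score of 0.849 in E10.5 HL EYFP+ and 0.248 in E10.5 CKO (adjusted p = 0.0021), and sites in Bmpr1b (0.521 and 0.0602, adjusted p = 0.0046) and the co-receptor Tgfbr3 (0.836 and 0.291, adjusted p = 0.0092) lay on the same side. A site in Aldh1a2, the enzyme that makes retinoic acid, was on the other side (0 and 0.759, adjusted p = 6.2e-06), as was one in the heparan sulphate proteoglycan gene Gpc6 (0.0307 and 0.931, adjusted p = 0.00038).

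Limb bud transcription factors had 2 sites higher and 3 lower of 84 (5.95%), with Prrx2 (0.782 and 0.106, adjusted p = 0.0071) and a Sox6 site (0.848 and 0.285, adjusted p = 0.0034) higher in E10.5 HL EYFP+, another Sox6 site, listed in 1 library outside E10.5 CKO, lower (0 and 0.390) and a site in the proximal limb factor Meis1 lower (0.0779 and 0.619, adjusted p = 0.0027). Other long transcription factor genes had 10 higher and 19 lower of 272 (10.7%), with 4 sites in Foxp1 and 2 in Foxp4 lower and Zfhx4 on both sides. Very long neuronal genes had 4 higher and 10 lower of 117 (12%). These 3 lists had, under the stricter filter, 2 and 2 of 69 (5.8%), 8 and 12 of 218 (9.17%) and 3 and 8 of 97 (11.3%). In Fmn1 1 of its sites was higher (0.885 and 0.0520, adjusted p = 0.0010). Muscle progenitor genes had 2 sites higher in E10.5 CKO of 17, in Pax3 (0 and 0.572, adjusted p = 5.7e-06) and Met, endothelial and blood genes had 1 higher and 2 lower of 50, cartilage and matrix genes 1 higher and 2 lower of 31, neural crest genes 1 lower of 4 in Ednrb and ectodermal genes 0 of 8. With the stricter filter muscle progenitor genes had 1 of 11, endothelial and blood genes 1 and 1 of 38, cartilage and matrix genes 1 and 2 of 27 and neural crest genes 0 of 2. The Pax3 promoter was listed in 3 of 3 E10.5 HL EYFP+ and 0 of 2 E10.5 CKO libraries. Those of Lbx1 and Myf5 were each listed in 2 of 3 and 0 of 2, and that of Pax7 in 0 of 3 and 0 of 2. The part of other cell types in these differences was not tested.

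At the level of host genes 73 of 1214 were called (6.01%), 32 higher in E10.5 HL EYFP+ (2.64%) and 41 higher in E10.5 CKO (3.38%). The protocadherin gene Pcdh15 had a mean score of 0.605, 0.531 and 0.477 over its 3 sites in E10.5 HL EYFP+ and 0 and 0.0524 in E10.5 CKO (adjusted p = 1.0e-05), and Slc39a10 followed (0.29 ± 0.038, adjusted p = 0.00077). Of the 3 tested Slc39a10 sites only the site named above was called, and it carried the whole difference of the gene. Slc24a3, a cation exchanger, had 0.0632, 0.0093 and 0 against 0.431 and 0.423, followed on that side by the transcription factor gene Klf12 and by Eml6. This count of genes was sensitive to single libraries, with 14 genes called without E10.5 CKO replicate 1, 8 without E10.5 CKO replicate 2 and 47 without E10.5 HL EYFP+ replicate 1. With whole lists 7 genes were called, and with the top 10000 8. From sites listed outside both groups 61 of 989 genes were called, but Slc24a3 had too few such sites.

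At E10.25 the comparison of wild-type with knockout posterior hindlimb cells was one-sided. Of 9578 intronic distal sites 309 were called (3.23%), 278 higher in E10.25 WT and 31 higher in E10.25 CKO, while over all sites 2.14% were called, 1.84% higher in E10.25 WT and 0.3% higher in E10.25 CKO. Without both short E10.25 CKO lists 354 sites were called, 266 and 88, and without E10.25 WT replicate 2 the count was 191. With the top 10000 only 19 sites were called, 15 and 4, and the difference in share turned to -1.01 points. Of the 309 sites 176 were listed in fewer than 2 libraries outside the higher group, and among 7554 sites listed in at least 2 libraries outside both groups 96 were called (1.27%), 72 and 24, against 1.01% of all sites under this filter. Both E10.25 WT libraries carry a date in the labels that none of the E10.25 CKO libraries carry, so date and genotype cannot be told apart. With whole lists the split was 639 and 5.

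The site most different was in Cmas, an enzyme of sialic acid metabolism, ranked 2000 and 1218 in E10.25 WT and 2974 in E9.5 HL and not listed in any other library (difference from E10.25 CKO 0.94). This is the tandem repeat printed above, and 12 of the 278 sites higher in E10.25 WT (4.32%) were such repeats, against 3.69% of tested sites. The sites in Ncoa7, ranked 7792 and 7784, and in Slc44a5 also had no summit in any E10.25 CKO list, and they were listed in 1 and 0 population libraries outside E10.25 WT.

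The site in Pou2f2, which encodes the OCT2 transcription factor of lymphocytes, was ranked 12693, 14668, 13533, 16415 and 12503 in the 5 E10.25 CKO libraries and 15509 and 14765 in both E10.5 CKO libraries. It was listed in none of the 25 other libraries (E10.25 difference -0.44 ± 0.040, limma adjusted p = 4.7e-05, and 0.00027 among sites listed in at least 2 libraries outside both groups, which it met through E10.5 CKO). This all-or-none pattern, noticed after the values were seen, was shared by 4 of 95477 sites and by no other intronic distal site. The Pou2f2 site lies at -5.48 Mb relative to the start of Etv2 on chromosome 7, the chromosome that carries the engineered Etv2 alleles. The other sites with this pattern lie on chromosomes 11, 11 and 14, and whether linked strain sequence takes part was not tested. The sites in Phldb2 and Abcc8, a subunit of potassium channels, were listed in all 7 knockout libraries too, but also in E10.5 HL EYFP+ (3 and 1 libraries).

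Few list genes differed at E10.25. Limb bud transcription factors had 2 sites higher in E10.25 WT and 1 lower of 84 (3.57%, against 3.23% of all tested intronic distal sites). The same Sox6 site (0.520 and 0.0152, adjusted p = 0.0069) was higher and the same Meis1 site (0.00138 and 0.510, adjusted p = 0.0038) lower, as at E10.5, while a second Meis1 site was higher. Signalling genes had 2 and 2 of 154, with the Hhip and Bmpr1b sites again higher in cells with intact Etv2 (0.483 and 0.115, adjusted p = 0.048, or 0.082 among sites listed outside both groups, and 0.430 and 0, adjusted p = 0.0073). Endothelial and blood genes had 1 higher of 50, in the VEGF receptor gene Flt1 (0.294 and 0), listed in no other population library. Other long transcription factor genes had 5 higher and 1 lower of 272, very long neuronal genes 3 higher of 117 and cartilage and matrix genes 1 higher of 31, in Trps1. The lists of muscle progenitors, ectoderm, neural crest and hosts of a neighbour's element had none. Under the stricter filter limb bud transcription factors had 1 and 1 of 73 (2.74%, against 1.27%), signalling genes 1 and 2 of 138, other long transcription factor genes 3 higher of 229, neuronal genes 1 higher of 97, the matrix list 1 higher of 30 and endothelial and blood genes 0 of 40.

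Motif content of the called sites was counted in the same way, as a description without a test. The GATA motif AGATAA was in 21.2% of the 278 sites higher in E10.25 WT and 13.2% of the 416 higher in E10.5 CKO, against 6.86% of tested intronic distal sites and 4.52% of the 221 higher in E10.5 HL EYFP+. Under the stricter filter it was in 9.72% of the 72 sites higher in E10.25 WT (6.13% of those tested), 14.1% of the 241 higher in E10.5 CKO and 3.70% of the 189 higher in E10.5 HL EYFP+ (6.66% of those tested). The homeodomain motif TAATTA was in 15.8% of those 221 sites against 7.997% of tested ones, and the CTCF core in 1.81% of them and 1.20% of sites higher in E10.5 CKO against 6.34%, and under the stricter filter TAATTA was in 14.3% against 7.06%. ETS motifs were in 9.05% and 11.1% of these and in 7.91% of the sites higher in E10.25 WT, around the 9.41% of tested sites. Of the endothelial and blood markers, the Gata1 and Emcn promoters were listed in 1 of 2 E10.25 WT and 0 of 5 E10.25 CKO libraries, Tal1 and Kdr in all 7, and Cdh5, Pecam1, Tek, Tie1 and Ptprc in none. In E10.5 CKO only Kdr of these 9 promoters was listed (2 of 2 libraries), and in E10.5 HL EYFP+ Kdr (3 of 3) and Tal1 (1 of 3). Beyond these listings the part of blood or endothelial cells in the GATA share was not tested.

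Only 6 of 1214 host genes were called at E10.25 (0.494%), all 6 higher in E10.25 WT (0.494%) and none higher in E10.25 CKO (0%), with 150 genes at an unadjusted p under 0.05. Hhat, the acyltransferase that attaches palmitate to Hedgehog ligands, led them. Its 4 sites had mean scores of 0.332 and 0.324 in E10.25 WT and 0 in all 5 E10.25 CKO libraries (difference 0.33 ± 0.039, limma adjusted p = 0.00056). It was also among the genes higher in E10.5 HL EYFP+, with 0.266, 0.307 and 0.261 against 0 and 0 in E10.5 CKO (adjusted p = 0.0019), so that no knockout library listed any of its tested sites. In each of these comparisons 1 of the 4 Hhat sites was called by itself. The protein kinase gene Prkca and Asb17 followed (differences 0.26 and 0.29). Leaving out either E10.25 WT library left 1 gene called, leaving out E10.25 CKO replicate 2 gave 10, and leaving out both short lists gave 4. From sites listed outside both groups Hhat alone was called, of 949 genes (adjusted p = 0.0015, with 87 genes at an unadjusted p under 0.05), and Prkca and Asb17 had too few such sites.

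Forelimb and hindlimb EYFP+ libraries carried the same numbers in the labels, read here as the same collection of embryos. Of 9578 intronic distal sites 135 were called (1.41%), 104 higher in E10.5 FL EYFP+ and 31 higher in E10.5 HL EYFP+, while over all sites 0.884% were called, 0.616% higher in the forelimb and 0.268% higher in the hindlimb. With that number as a replicate block in the fit of all population libraries 234 sites were called, 179 and 55, but with only the 6 paired libraries none was. Without E10.5 FL EYFP+ replicate 3 the count was 332, and with whole lists the split was 473 and 38. Of the 135 sites 65 were listed in fewer than 2 libraries outside the higher group, and among 6997 sites listed in at least 2 libraries outside both groups 24 were called (0.343%), 12 in each direction, against 0.216% of all sites under this filter, so the excess in the forelimb rested on sites listed in few other libraries.

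Mbnl2, a splicing regulator, led the forelimb sites. Its site was ranked 11140, 10179 and 10143 in the 3 forelimb libraries and was not listed anywhere else (difference 0.58). The site in Pde4d, a phosphodiesterase that is among the 20 leading hosts, was ranked 12894, 13098 and 12117 in the forelimb against none in the hindlimb (0.49), and that in the RNA-binding protein gene Bicc1 followed (0.55). Outside the forelimb no other population library listed any of these 3 sites.

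Pak3, a cytoskeletal kinase, led the hindlimb sites, at 7415, 11158 and 11522 against none in the forelimb (-0.60). It was listed in E10.5 Posterior too, and in 1 of 4 Control posterior and 1 of 3 Etv2OE posterior libraries, but not in any anterior library. A Gpc6 site at 117015628 on chromosome 14, different from the one above, was ranked 5482, 8314 and 6444 in hindlimb EYFP+ cells and not listed in any of the 3 forelimb libraries (-0.73 ± 0.062, limma adjusted p = 0.00015), while all 7 knockout libraries listed it, and that in Lgi1 was ranked 3471, 4308 and 4249 against 18088 and 21441 in 2 of 3 forelimb libraries (-0.70 ± 0.062, adjusted p = 0.00019).

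The promoter of the ectodermal gene Epcam was listed in 3 of 3 E10.5 FL EYFP+ and 0 of 3 E10.5 HL EYFP+ libraries and that of Grhl2 in 2 and 1, while Trp63 and Krt14 were listed in none of the 6, and the part of ectodermal cells in the differences was not tested. Of the lists, other long transcription factor genes had 6 sites higher in the forelimb of 272 (2.21%, against 1.41% of all tested intronic distal sites), among them Tead1, Zeb2 and Mef2c. Signalling genes had 2 higher in the forelimb (Notch2 and Bmpr1b) and 2 higher in the hindlimb (Ror1 and Gpc6) of 154 (2.6%). Endothelial and blood genes had 2 higher of 50 (4%), cartilage and matrix genes 1 and 1 of 31 (6.45%), neuronal genes 1 lower of 117 (0.855%), limb bud transcription factors 0 of 84 and the remaining lists, of 4 to 25 sites, none. Under the stricter filter none of the 6 transcription factor sites stayed called, and over all lists this Gpc6 site (1 of 110 signalling sites) and the Fbn1 site (1 of 19 matrix sites), both higher in the hindlimb, were the only calls. The E-box CAGATG was in 33.7% of the 104 forelimb sites against 18.7% of tested sites. Under the stricter filter it was in 6 of the 12, and the share of sites tested under that filter is not given here. Chd7, a chromatin remodeller, Adamts19 and the calcium channel gene Cacna1e were the 3 of 1214 host genes called (0.247%), all higher in the forelimb (0.247%) with none higher in the hindlimb (0%), at 116 genes with an unadjusted p under 0.05. Cacna1e had 0.390, 0.458 and 0.339 in the forelimb and 0.215, 0.114 and 0.0865 in the hindlimb (adjusted p = 0.026). With the number as block 21 genes were called in the fit of all population libraries and none in the 6 paired libraries alone. Leaving out single libraries gave 0 genes (without E10.5 HL EYFP+ replicate 3) to 12 (without E10.5 FL EYFP+ replicate 3). From sites listed outside both groups none of 858 was called, with 56 at an unadjusted p under 0.05, and the adjusted p of Cacna1e was 0.84.

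Posterior and anterior tissue of the same control hindlimbs gave 152 called sites of 7950 (1.91%), 97 higher in Control posterior and 55 higher in Control anterior, while over all 46998 sites 1.35% were called, 0.743% higher in Control posterior and 0.604% higher in Control anterior. With the embryo as a replicate block 55 sites were called in the fit of all 14 libraries, 36 and 19, and 8 in the 8 control libraries alone, 7 and 1. The posterior lists were longer, and with whole lists 716 sites were called, 610 and 106. Of the 152 sites 13 were listed in fewer than 2 libraries outside the higher group, and among 5546 sites listed in at least 2 libraries outside both groups 153 were called (2.76%), 52 of them higher in Control anterior, against 1.77% of all sites under this filter.

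Gas2, a cytoskeletal protein gene, led the posterior sites. Its site, the tandem repeat printed above, was ranked 7512, 6790, 6593 and 6404 in the 4 Control posterior libraries and 24367 in 1 of 4 Control anterior libraries (difference 0.72 ± 0.036, limma adjusted p = 3.5e-06), and 10368, 13957 and 10054 in Etv2OE posterior against none in Etv2OE anterior. The site in Gcfc2 was ranked 5466, 3225, 5398 and 6525 against 23368 in 1 of 4 (0.78 ± 0.041, adjusted p = 4.2e-06), and a site in St3gal3, a sialyltransferase gene, was ranked 7720, 10957, 5944 and 5795 against none (0.70 ± 0.055, adjusted p = 7.5e-05). The control groups did not overlap at these 3 sites, which were chosen by lowest adjusted p, so this is no separate result.

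Palld, an actin-bundling protein gene, led the anterior sites, at 17114, 13718, 14001 and 16598 in Control anterior against none in Control posterior (-0.39). The sites in Pappa, a protease of insulin-like growth factor binding proteins, and Rufy3 followed (-0.64 ± 0.063 and -0.73 ± 0.074, limma adjusted p = 0.00037 and 0.00048). The homeodomain motif TAATTA was in 23.6% of the 55 anterior sites against 7.69% of tested sites and 7.22% of the 97 posterior sites (19.2% and 7.92% under the stricter filter, against 7.84%), while the HOX13 motif was in 12.7% and 12.4% of the anterior and posterior sites against 5.96%. The E-box CAGATG was in 29.9% of posterior sites against 20.7% of tested ones.

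A limb bud transcription factor site in Sox6 was higher in Control anterior (0.298 in Control posterior and 0.688 in Control anterior, adjusted p = 0.029), 1 of 68 (1.47%, against 1.91% of all tested intronic distal sites). Sites in Cdh11 and Vcan (2 of 34 in the matrix list, 5.88%), Lef1 (1 of 236, 0.424%) and Dmd (1 of 97, 1.03%) were higher in Control posterior, and the 6 other lists had none. The matrix list had 3 of 25 under the stricter filter (12%, against 2.76%), limb bud transcription factors 1 of 52, neuronal genes 1 of 68 and the other lists none. The promoter of the muscle progenitor gene Myf5 was listed in 3 of 4 Control posterior and 1 of 4 Control anterior libraries. Pax3 was listed in 1 and 1, Lbx1 in 0 and 1 and Pax7 in 0 and 0, and the part of muscle progenitors was not tested. Of 990 host genes 25 were called (2.53%), 15 higher in Control posterior (1.52%) and 10 higher in Control anterior (1.01%), and 12 and 10 with the embryo block in the fits of all and of paired libraries. With whole lists 337 were called, 324 and 13, and from sites listed outside both groups 12 of 632, 7 and 5, with Rhobtb1, Cobl and Prdm2 having too few such sites. Rhobtb1 had 0.371, 0.330, 0.428 and 0.472 in Control posterior and 0.00769, 0, 0 and 0.157 in Control anterior, and Cers6, a ceramide synthase gene (adjusted p = 0.0059), and the actin nucleator gene Cobl were higher on the same side. Atp6v0d2 (adjusted p = 0.0094) and Prdm2 were among the genes higher in Control anterior. The count lay between 10 without Control posterior replicate 2 and 33, with 12 without Control anterior replicate 1, 15 without Control posterior replicate 1 and 16 without Control posterior replicate 4.

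Etv2 overexpression changed few intronic distal sites by this measure. In anterior tissue 7 of 7950 were called (0.0881%), 5 higher in Etv2OE anterior and 2 higher in Control anterior, while over all sites 0.0872% were called, 0.0553% higher in Etv2OE anterior and 0.0319% higher in Control anterior. In posterior tissue 7 were called (0.0881%), 6 higher in Etv2OE posterior and 1 higher in Control posterior, while over all sites 0.0638% were called, 0.0447% higher in Etv2OE posterior and 0.0191% higher in Control posterior. With whole lists the splits turned to 2 and 9 in anterior and 12 and 84 in posterior tissue, and 38 host genes were called in posterior tissue, all higher in Control posterior. Etv2OE lists were shorter than control lists in both tissues, 32670 to 37997 against 40949 to 45765 summits in anterior and 38152 to 47054 against 51268 to 54679 in posterior tissue. The sites at an unadjusted p under 0.05 were 5.76% and 6.26% of those tested. No host gene of 990 was called in either tissue by limma, so that 0% were called, higher in Etv2OE or higher in controls, with 59 and 55 genes at an unadjusted p under 0.05, and a trended, robust limma fit called none either (63 and 66 genes at an unadjusted p under 0.05). That fit called 0 sites in anterior tissue, with 424 at an unadjusted p under 0.05, and 4 in posterior tissue. Of the 7 and 7 sites 3 and 5 were listed in fewer than 2 libraries outside the higher group, and among 5850 and 5734 sites listed in at least 2 libraries outside both groups limma called none in either tissue (0.00542% and 0.0107% over all sites under this filter), with 271 and 297 at an unadjusted p under 0.05. Leaving out Etv2OE anterior replicates 7, 9 and 10 in turn gave 50, 30 and 14 anterior sites, and leaving out Etv2OE posterior replicates 7, 9 and 10 gave 33, 31 and 30 posterior sites, with 13 without Control anterior replicate 1 and 17 without Control posterior replicate 1.

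The anterior sites named here were called without the trend and the stricter filter only. Notch2, a Notch receptor gene, held the first site higher in Etv2OE anterior. It was ranked 14835, 16960 and 17078 in the 3 Etv2OE anterior libraries and 22444 in 1 of 4 Control anterior libraries (0.32 ± 0.039, limma adjusted p = 0.010), and it was listed in the 3 forelimb EYFP+ libraries but in no hindlimb EYFP+ library. The sites in the calcium sensor gene Ncs1 and in Cfap53 followed (adjusted p = 0.025 for Ncs1), and a second site in Sox6 was called on the same side (0.613 and 0.108, adjusted p = 0.045). The Palld site, ranked 13718 to 17114 in all 4 Control anterior libraries, was listed in 1 of 3 Etv2OE anterior libraries at rank 24780 (-0.38), and a site in Prdm2, a histone methyltransferase gene, was the other one lower (-0.48). Both sites were listed in all 4 Control anterior libraries and in no Control posterior library, a comparison that shares the Control anterior libraries with this one.

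In posterior tissue the second Sema3d site was ranked 11935, 8583 and 7578 in Etv2OE posterior and not listed in any control library (0.63). The same window was listed in both E10.5 CKO libraries, at 5193 and 7464, in which Etv2 is deleted. A site in St3gal3 was listed in the 3 Etv2OE posterior libraries and in no Control posterior library (0.62), at 118040778 on chromosome 4 and so different from the posterior site above, and a site in Zbtb7c followed (0.63). These 3 sites were listed in 0, 0 and 1 of the 11 overexpression libraries outside Etv2OE posterior. A site in Eng, an endothelial co-receptor for TGF-beta, was higher too (0.413 and 0, limma adjusted p = 0.035, or 0.14 among sites listed outside both groups), the only one of 53 tested in endothelial and blood genes (1.89%, against 0.0881% of all tested intronic distal sites). The Spag17 site was ranked 18313, 14792, 16658 and 18283 in Control posterior and 24811 in 1 of 3 Etv2OE posterior libraries (-0.32 ± 0.043, limma adjusted p = 0.022, or 0.097 among sites listed outside both groups). The ectodermal Epcam promoter was listed in 0 of 3 Etv2OE posterior and 4 of 4 Control posterior libraries, and in 1 of 3 and 2 of 4 anterior ones. That of Grhl2 was listed in 0 of 3 and 1 of 4 posterior and 2 of 3 and 3 of 4 anterior libraries, Trp63 in 1 and 1 and in 0 and 1, and Krt14 in none, and the part of ectodermal cells was not tested here or between Control posterior and Control anterior. Among all other lists Notch2 (1 of 140, 0.714%) and Sox6 (1 of 68, 1.47%) were the only genes with a call, both in anterior tissue, and under the stricter filter no list had any.

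**Figure D5:**
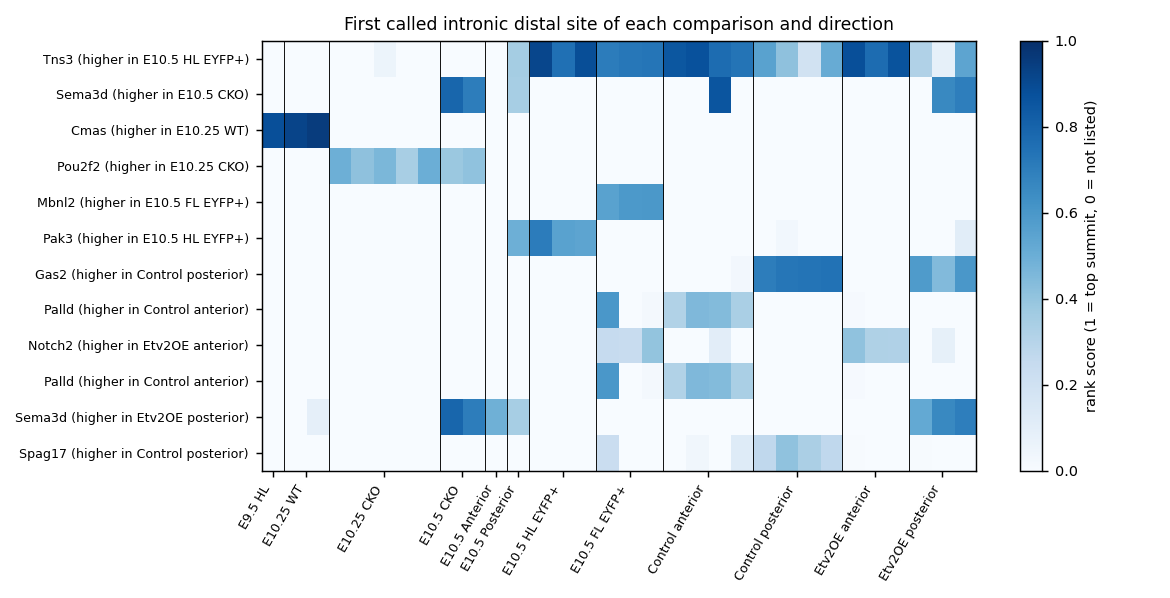
Rank score (colour, 1 for the best summit and 0 when not listed) of the first called site for each comparison and direction (y axis) in 32 libraries ordered by group (x axis), with groups divided by black lines. The Pou2f2 row is coloured only in the 7 knockout libraries and the Mbnl2 row only in the 3 forelimb libraries, and the Palld site appears as 2 rows because it came first in 2 comparisons.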

How the data were processed

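ATAC-seq summit lists of 32 mouse limb bud libraries were used. The authors sequenced paired ends, aligned reads with Bowtie2 2.2.4 to mm10, removed duplicates, shifted reads for the Tn5 insertion and called summits per library with MACS2, and the deposited score is the -log10 q value of each summit. The lists hold no read counts, so depth is unknown and the list length (13766 to 54679 summits) limits precision. Groups were taken from the labels, with the letters A and P of the overexpression samples read as anterior and posterior. The study's legends describe population libraries as pools of embryos and overexpression hindlimbs as analysed by embryo, and whether pools of 1 group came from separate collections is not given for every group, so p-values measure the spread between libraries.

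Summits were ranked by score, the top 25000 were kept, and annotated with GENCODE mm10 genes, with gene bodies and names compared with RefSeq. Sites of 200 bp were built over all libraries. Rank scores of sites listed in at least 2 libraries of the experiment (18 population or 14 overexpression libraries) were tested with limma 3.58.1 in R 4.3.3, all groups of the experiment sharing one spread, with Benjamini-Hochberg adjustment over all sites or over host genes with at least 3 tested sites. Shares were compared by exact permutation tests, two-sided. Python 3.11.15, numpy 2.4.6, scipy 1.17.1, pysam 0.24.0 and matplotlib 3.10.9 were used. The steps were tested on simulated data. Differences drawn from the model were recovered, but shuffled values and values with unequal spread gave more calls than the nominal rate, so adjusted p-values are approximate.

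Members, gene lists and tests were chosen with earlier results of these data known. Named were the 20 host genes with most recurrent sites, the 10 with most per 100 kb among those with at least 5, the 3 sites and 3 host genes with the lowest adjusted p in each comparison and direction, and up to 4 genes of each list with most recurrent sites, besides list genes with a called site. Replicate numbers pair the control libraries, which come from the same embryo by label. Forelimb and hindlimb EYFP+ libraries share label numbers, and their deviations correlated at 0.180 to 0.430 for the same number and -0.251 to 0.0835 for others. Windows on chromosome 18 are not shown, and a few items that these rules select are not reported here.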

Additional observations from a re-analysis of the deposited data

Results flagged for a closer look

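In 4 of 63 groups of host gene values (6.35%, where chance gives about 1 in 20) the lowest library lay apart from the rest. E10.25 CKO replicate 2, a short list, had 2 of the Pknox2 sites against 8 to 10 in the other libraries of the group. Control anterior replicate 2 had 4 Esrrg sites against 5, Control posterior replicate 3 had 7 Mecom sites against 8, and Control posterior replicate 4 had 5 Ppm1h sites against 6, each 1 site below libraries that tied.

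Without the embryo in the fit, the effect of Etv2 overexpression differed between anterior and posterior tissue at 4 of 7950 intronic distal sites (0.0503%) by an interaction term in limma, against 28 of 46998 sites in all (0.0596%). The anterior minus posterior effect was -0.62 at the St3gal3 site and -0.63 at the second Sema3d site and at the Zbtb7c site, each with an effect of 0 in anterior tissue. At the Palld site it was -0.38, with an effect of 0 in posterior tissue, where neither group listed the site. With the embryo as a block, since anterior and posterior tissue came from the same embryos, none of the 7950 was called (387 at an unadjusted p under 0.05). Each of the 4 was listed in at most 1 overexpression library outside the group in which it was high and had been called within 1 tissue before the difference was tested, and what the posterior Sema3d, St3gal3 and Zbtb7c summits have in common was not tested.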

How the results depend on the processing

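Of the alternatives tried, 72 of 81 kept the direction and call of a share difference, 56 of 99 kept a count of called sites within 1.5 times, and 36 of 77 a count of host genes. The cause of the changes below was not tested. The pairs of groups are numbered here as 1 (hindlimb EYFP+ with E10.5 CKO), 2 (E10.25 WT with E10.25 CKO), 3 (forelimb with hindlimb EYFP+), 4 (Control posterior with Control anterior), 5 (Etv2OE with Control, anterior) and 6 (Etv2OE with Control, posterior).

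The number of recurrent sites was 922 at 24 or more libraries, 79 at all 32, 470 with the top 10000 and 4329 with whole lists. Of the 20 leading host genes 8 and 13 were again among the first 20 with the top 10000 and with whole lists. With a summit within 100 bp 13 were. Ranked by sites listed in all 32 libraries 0 were again among the first 20, in an order where many genes tie. Gm20388, Maml3, E130114P18Rik, Pde4d and Tcf7l1 nevertheless each held 1 such site. With the top 10000 the share difference reversed to -1.01 points in pair 2, 0.425 in pair 5 and 0.257 in pair 6. Called sites in the 6 pairs then numbered 219, 19, 30, 20, 1 and 2, and called host genes 8, 0, 0 and 9 in pairs 1 to 4. With whole lists, ranks divided by list length, 644, 511, 716, 11 and 96 sites were called in pairs 2 to 6, and 7, 38, 34 and 337 host genes in pairs 1 to 4 and 38 in pair 6. A distance of 100 bp gave 98 sites in pair 4 and 4 in pair 5, and no filter on libraries gave 12 in pair 5. Host genes with at least 1 tested site gave 246, 167, 44, 68, 1 and 1 calls. Sites listed in all libraries of a group and none of the other numbered 498, 211, 43 and 56 in pairs 2, 3, 5 and 6. The shares over all sites by this count are not given here, so these numbers are no result particular to intronic distal sites. Counting exons of protein-coding genes only, starts of every transcript or lower distances of 2 and 10 kb turned no share difference.

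Alternatives chosen after seeing the data were a trended, robust limma fit (11 and 5 host genes in pairs 2 and 3, and 41, 0 and 4 sites in pairs 4 to 6), fits of both groups alone (273 sites in pair 1 and 19 in pair 3), and sites listed in at least 2 libraries outside both groups (96, 24, 0 and 0 sites in pairs 2, 3, 5 and 6, and 1, 0 and 12 host genes in pairs 2 to 4), besides the RefSeq bodies, short lists and blocks of the report.

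Leaving out 1 library at a time gave share differences of -0.134 to 0.762, 0.909 to 1.67, -0.231 to 0.887, 0.511 to 0.657, -0.198 to -0.006 and -0.298 to 0.098 points. The sign turned without E10.5 HL EYFP+ replicate 3 (-0.134, pair 1), without E10.5 HL EYFP+ replicate 2 (-0.00933) or E10.5 FL EYFP+ replicate 3 (-0.231, pair 3), and without Etv2OE posterior replicate 9 (0.098) or 10 (0.006, pair 6). In pair 3 leaving out 1 library leaves another without its partner by label number. Called sites ranged over 525 to 697, 191 to 351, 169 to 332, 102 to 168, 5 to 50 and 5 to 33, and host genes over 8 to 63, 1 to 10, 0 to 12, 10 to 33, 0 to 3 (3 without Control anterior replicate 1) and 0 to 0.

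With the replicate number as a block on both groups alone, 0 sites and 0 host genes were called in each of pairs 1 to 3, and 8 sites and 10 host genes in pair 4, and the share differences were -0.134, 1.44, 0.412 and 0.582 points. In pairs 1 and 2 the libraries share only a number. With the block in the fit of all libraries 234 sites and 21 host genes were called in pair 3, and 55 and 12 in pair 4.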
